A study of Mus musculus with 4 samples.

Results

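The genes described here encode enzymes that attach ubiquitin to proteins or remove it. They are the 109 protein-coding genes, of 21900 in the RefSeq annotation of GRCm38, whose symbol begins with Ube2, with Uba and a digit, or with Usp or Otud and a digit. The Ube2 group has 37 genes of conjugating enzymes, the Uba group 8 genes, nearly all of activating enzymes, and the Usp and Otud groups together 64 genes of deubiquitinases (56 Usp and 8 Otud). The choice by symbol also takes in Usp6nl, a GTPase-activating protein for Rab proteins, and Ube2cbp, a protein that binds a conjugating enzyme. H3K79me2, the dimethylation of a lysine in the globular part of histone H3, was profiled by chromatin immunoprecipitation and sequencing in dendritic cells grown from the bone marrow of C57BL/6J mice (BMDCs). One group was given PBS. The other received 18 mM lysine over 6 h, and the labels give no time for PBS and no number of mice. The 4 samples are an H3K79me2 library and an input for each group, and the peak lists of the 2 H3K79me2 libraries were used. With 1 library per condition there is no spread between replicates, so no difference below was tested and every value describes these 2 libraries. The lists hold no read counts, so the depth is unknown.

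Ubiquitin is passed from an activating enzyme to a conjugating enzyme and then, with a ligase, to a lysine of the target protein. Chains of ubiquitin send proteins to the proteasome or build signalling platforms, and deubiquitinases take them off again. Related enzymes do the same with the ubiquitin-like proteins SUMO, NEDD8 and ISG15. In dendritic cells ubiquitination is known for its part in signalling from Toll-like receptors and in the turnover of MHC class II. The pathway also touches the mark measured here: Ube2a and Ube2b, with their ligase, place ubiquitin on histone H2B, which stimulates Dot1l, the methyltransferase of H3K79. H3K79me2 itself lies over the first part of transcribed genes.

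Markers of the labelled cell type were checked first. Peaks lay on 8 of 12 dendritic cell genes in PBS and on 5 in lysine, and covered 7856 and 4213 bp. These are 66.7% and 41.7% of the genes, beside 34.0% and 31.4% of all protein-coding genes. Itgax, which encodes CD11c, had 935 bp in PBS against 431 bp in lysine, and Cd86 2478 and 1081 bp. H2-Ab1, of MHC class II, had 2442 and 0 bp. Cd74, the invariant chain, went the other way with 900 and 2134 bp, as did Irf8 with 33 and 146 bp, and Ccr7, Irf4, Csf2rb and Spi1 had 0 bp in both. Of 8 macrophage and monocyte genes 6 and 2 had a peak (2406 and 1482 bp in all), with Csf1r at 1171 and 1160 bp and Adgre1 and Lyz2 at 0 bp in both. The only neutrophil gene of 6 with a peak was S100a8 (71 bp in PBS, 0 bp in lysine), and none of 7 T and NK cell, 5 B cell or 8 genes silent in blood cells had any. The dendritic and macrophage marker totals were lower in the lysine library, as were those of the enzyme genes below, and their part in those results was not tested. Ratios of these marker totals were 0.536 and 0.616, beside 0.796 over all protein-coding genes. The PBS list holds 11926 peaks and the lysine list 9805. Fewer cells carrying the mark, less mark per cell and a difference in depth or peak calling cannot be told apart.

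Upstream sequences of 9 genes are given because peaks described below lie over them, in all 9 genes in PBS and in 6 in lysine (not in Uba2, Usp6nl and Ube2z). They are the 2 genes of each class with the most covered length and a peak over the promoter window, together with the 2 genes with the largest loss and the 2 with the largest gain of covered length in lysine. Each is the stretch of 250 bases before the most upstream listed start, 5′ to 3′ along the gene, from RefSeq on GRCm38.p6. Capitals mark any match, on either strand, to GGGCGG, the GC box bound by Sp1, to CCAAT, to TATAAA, to CCGGAA, the core of ETS family sites, to GCGCATG, part of the NRF1 motif, or to a pair of GAAA with 2 bases of any kind between. Neighbouring or overlapping matches run together.
Ube2g1, chr11:72607011-72607260, plus strand: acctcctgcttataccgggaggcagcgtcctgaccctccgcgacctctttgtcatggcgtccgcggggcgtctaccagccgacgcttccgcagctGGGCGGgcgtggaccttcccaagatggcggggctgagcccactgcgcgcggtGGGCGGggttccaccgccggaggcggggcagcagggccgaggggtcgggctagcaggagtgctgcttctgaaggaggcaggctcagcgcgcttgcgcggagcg
Ube2d3, chr3:135437982-135438231, plus strand: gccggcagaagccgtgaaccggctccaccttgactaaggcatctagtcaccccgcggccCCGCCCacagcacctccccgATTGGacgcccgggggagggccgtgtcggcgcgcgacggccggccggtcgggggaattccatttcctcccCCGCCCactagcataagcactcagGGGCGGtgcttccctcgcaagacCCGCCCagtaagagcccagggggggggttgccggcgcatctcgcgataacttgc
Ube2z, chr11:96065365-96065614, minus strand: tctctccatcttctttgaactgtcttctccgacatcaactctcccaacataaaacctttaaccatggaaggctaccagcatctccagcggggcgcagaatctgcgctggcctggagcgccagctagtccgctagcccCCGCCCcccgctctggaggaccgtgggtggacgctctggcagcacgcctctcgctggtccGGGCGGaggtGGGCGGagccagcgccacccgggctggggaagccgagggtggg
Uba3, chr6:97205648-97205897, minus strand: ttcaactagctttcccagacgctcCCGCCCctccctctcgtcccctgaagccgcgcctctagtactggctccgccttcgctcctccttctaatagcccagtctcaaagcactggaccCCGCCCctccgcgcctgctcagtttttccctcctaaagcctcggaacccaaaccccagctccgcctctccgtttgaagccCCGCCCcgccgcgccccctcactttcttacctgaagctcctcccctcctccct
Uba2, chr7:34168530-34168779, minus strand: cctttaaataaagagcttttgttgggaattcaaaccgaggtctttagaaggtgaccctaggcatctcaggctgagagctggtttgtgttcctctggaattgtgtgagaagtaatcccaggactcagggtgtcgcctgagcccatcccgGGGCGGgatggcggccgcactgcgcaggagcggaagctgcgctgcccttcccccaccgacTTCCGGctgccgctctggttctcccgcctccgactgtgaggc
Usp32, chr11:85139956-85140205, minus strand: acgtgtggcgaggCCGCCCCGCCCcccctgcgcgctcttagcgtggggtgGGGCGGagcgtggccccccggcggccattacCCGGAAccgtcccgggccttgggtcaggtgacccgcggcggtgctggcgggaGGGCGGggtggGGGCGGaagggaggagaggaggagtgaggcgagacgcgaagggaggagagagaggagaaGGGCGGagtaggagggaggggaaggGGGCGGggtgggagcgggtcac
Usp6nl, chr2:6322507-6322756, plus strand: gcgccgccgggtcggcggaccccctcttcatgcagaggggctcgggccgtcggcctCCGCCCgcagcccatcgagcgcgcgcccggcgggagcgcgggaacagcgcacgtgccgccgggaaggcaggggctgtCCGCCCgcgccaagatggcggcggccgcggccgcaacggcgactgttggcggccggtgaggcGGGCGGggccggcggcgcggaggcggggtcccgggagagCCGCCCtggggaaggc
Usp37, chr1:74505822-74506071, minus strand: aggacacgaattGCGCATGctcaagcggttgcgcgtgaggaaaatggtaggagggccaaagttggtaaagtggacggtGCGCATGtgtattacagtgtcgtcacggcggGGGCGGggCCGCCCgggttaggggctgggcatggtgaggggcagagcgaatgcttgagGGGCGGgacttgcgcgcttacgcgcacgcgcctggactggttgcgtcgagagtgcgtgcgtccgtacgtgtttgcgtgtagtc
Usp4, chr9:108347581-108347830, plus strand: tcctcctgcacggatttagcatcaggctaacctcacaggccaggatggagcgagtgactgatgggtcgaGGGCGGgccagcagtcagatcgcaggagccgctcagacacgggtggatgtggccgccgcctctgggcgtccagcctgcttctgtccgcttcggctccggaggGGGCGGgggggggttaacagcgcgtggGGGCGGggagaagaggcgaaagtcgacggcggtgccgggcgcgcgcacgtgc

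These stretches are rich in CpG, from 14 CpG in Uba2 to 43 in Usp6nl. A promoter was listed for 84 of the 109 genes. In the 49 of these that had a peak in either library the 250 bases held a median of 24 CpG (quartiles 17 and 28), in the 35 without a peak 12 (5 and 23.5), and over 17492 protein-coding genes 10 (3 and 19). GGGCGG was found in 35 of the 49 (71.4%) and 16 of the 35 (45.7%), and in 42.7% of all promoters. CCAAT went the other way, with 9 of the 49 (18.4%), 17 of the 35 (48.6%) and 36.5% of all. CCGGAA was found in 16 (32.7%) and 5 (14.3%), against 15.2% of all, and GCGCATG in 4 and 0, against 4.0%. TATAAA was found in 3 (6.12%) and 5 (14.3%), against 12.4% of all. The pair of GAAA was found in 0 and 2 promoters, against 3.04%. These are matches of letters in a fixed window and were not tested.

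A peak was found on 59 of the 109 genes in PBS (54.1%, 95% Clopper-Pearson interval 44.3 to 63.7) and on 46 in lysine (42.2%, 32.8 to 52.0). Over all protein-coding genes these shares were 34.0% and 31.4%. The intervals of shares cover counting error only. Both libraries had a peak on 41 genes, PBS alone on 18 and lysine alone on 5, and 45 genes had none. Over all 21900 genes these counts were 5844, 1602, 1026 and 13428. Covered length means the part of a gene that lies under broad peaks, and marked genes are those where it reached 500 bp. Where no peak was called, weaker H3K79me2 may still be present. By this measure 17 genes were marked in PBS (15.6%) and 15 in lysine (13.8%), beside 11.4% and 9.02% of all genes. Both libraries marked 11, PBS alone 6 and lysine alone 4, where all genes gave 1365, 1123 and 611. The genes had a median length of 36.5 kb, and all genes one of 17.1 kb.

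Covered length over the 109 genes summed to 26755 bp in PBS and to 21511 bp in lysine, a ratio of 0.804, next to 0.796 over all protein-coding genes. In lysine it was shorter for 41 genes (37.6%, against 22.5% of all genes) and longer for 23 (21.1%, against 16.1%). Lysine minus PBS, the genes with any peak differed by a median of -55 bp here and -38 bp over all genes. Shortfalls of at least 500 bp numbered 4 (3.67%, against 4.26%) and gains of that size 3 (2.75%, against 1.83%). The summed difference of -5244 bp shrank to -894 bp when both lists were held to the same number of peaks. Further alternatives were 2 filters, which kept peaks of −log10 q 2 or more and 5 or more (below, the q filters of 2 and 5), the narrow blocks inside the broad peaks, and 1 kb added at both ends of each gene.

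**Figure D1:**
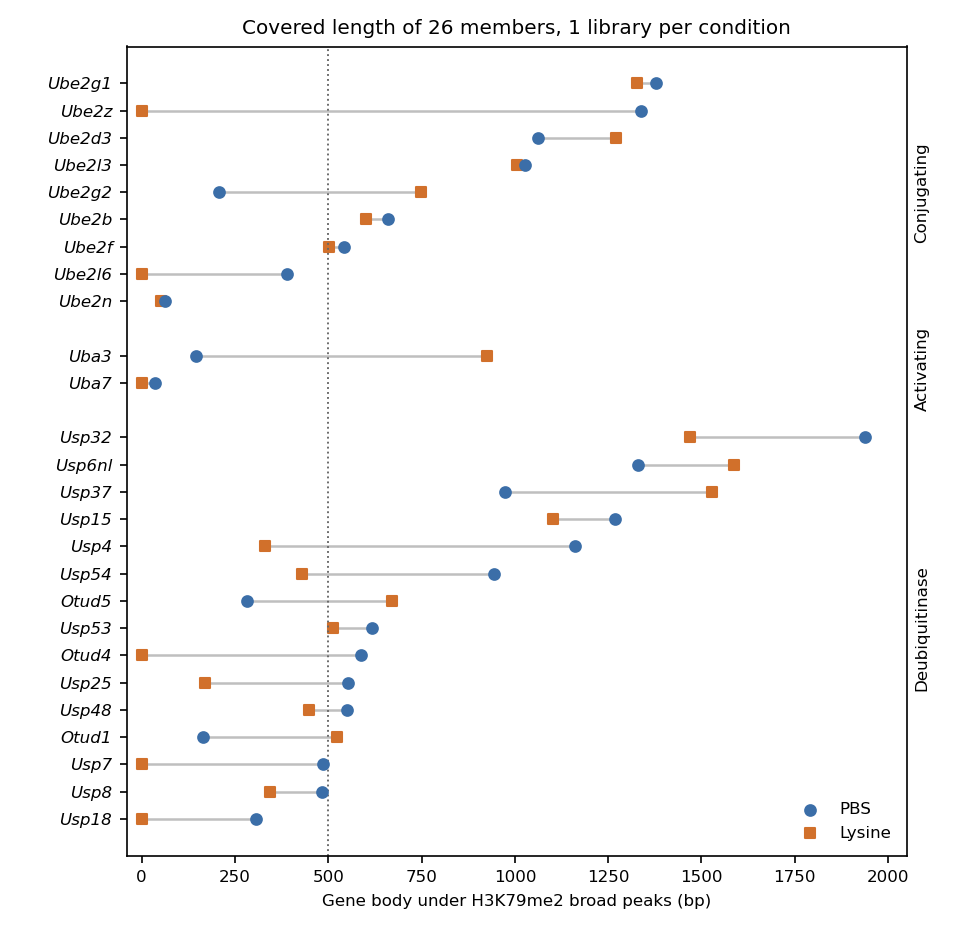
Covered length of the named genes in bp (x axis) in the PBS library (circles) and the lysine library (squares), 1 library each, grouped by class, with a dotted line at 500 bp. Ube2z, Otud4, Ube2l6, Usp7, Usp18 and Uba7 have no lysine peak, while Uba3, Usp37 and Ube2g2 lie furthest to the right of their PBS value.

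Among the conjugating enzymes, peaks lay on 22 of 37 genes in PBS and on 17 in lysine (59.5% and 45.9%, beside 34.0% and 31.4% of all genes). Each library marked 7 genes (18.9%, beside 11.4% and 9.02%), 6 of them the same. Their covered lengths were 10130 and 7860 bp (ratio 0.776). In lysine 16 genes were shorter and 8 longer (43.2% and 21.6%, beside 22.5% and 16.1%).

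The conjugating enzyme with the most covered length was Ube2g1, which serves degradation at the endoplasmic reticulum. It lies at chromosome 11, 72607261 to 72686481, and had 1379 bp in PBS and 1326 bp in lysine. A single wide peak covered its start in each library (1416 and 1490 bp wide). Ube2d3, a member of the widely used Ube2d family, had 1062 and 1270 bp. In PBS these were a peak of 892 bp over the start and one of 499 bp further in, and in lysine 1 peak of 1658 bp ran over the start. Ube2l3, which works with HECT and RBR ligases, had 1026 and 1005 bp. Its 2 peaks stood in both libraries at the same places, about 20 kb and 24 kb into the gene and away from the listed start. The differences of these 3 genes, from -53 to 208 bp, were small beside their lengths, but not in all alternatives. That of Ube2l3 moved to -642 bp under the q filter of 2 and to -1026 bp under that of 5. That of Ube2d3 turned to -563 bp under the q filter of 5, where Ube2g1 had no peak in either library. By narrow blocks the difference of Ube2g1 turned to 144 bp.

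Ube2z (chromosome 11, 96047431 to 96065364), which takes ubiquitin from the activating enzyme Uba6, showed the largest shortfall of any of the 109 genes. Its covered length was 1337 bp in PBS, under 1 peak of 1420 bp that ran over the start, and 0 bp in lysine. That peak was among the weaker ones of its list, with a deposited fold enrichment over background of 3.59 and a −log10 q of 1.92, at percentile 8.0 of the PBS list by −log10 q. Under either q filter, or with equal numbers of peaks, Ube2z had no peak in either library. Ube2g2, the partner of Ube2g1 in the same process, went the other way, from 206 bp in PBS to 748 bp in lysine. Its difference of 542 bp turned to -206 bp under the q filter of 5 and by narrow blocks. Uba6 itself had 3 bp and 195 bp.

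Conjugating enzymes of NEDD8 and ISG15 differed in whether lysine had a peak. Ube2f and Ube2m both serve NEDD8. Ube2f had 542 and 502 bp under 1 peak at the same place in each library, while Ube2m had 297 and 0 bp. Ube2l6, which serves ISG15, had 389 and 0 bp.

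The remaining conjugating enzymes had shorter stretches. Ube2b, the partner of Ube2a on histone H2B, had 659 and 602 bp, and Ube2a had no peak in either library. Ube2b overlaps Cdkl3, with which it shares its covered length. Of the enzymes of lysine-63 chains, the chains used in signalling from Toll-like receptors, Ube2n had 62 and 53 bp, Ube2v1 179 and 205 bp, and Ube2v2 none. The short value of Ube2n is the inner edge of peaks of 473 and 497 bp that lie mostly before the start. Ube2c, which works with the anaphase-promoting complex in mitosis, had 97 and 138 bp on the gene from peaks of fold 10.8 in PBS and 13.02 in lysine, the latter the highest fold of any lysine peak on the 109 genes. Ube2s and Ube2j2 had 83 and 419 bp in lysine and 0 bp in PBS. At Ube2s the lysine peak, 844 bp wide, was overlapped over at least 50% of its width by PBS peaks outside the gene. The lysine peak of Ube2j2 had no PBS partner. Ube2d1, Ube2h, Ube2w, Ube2m, Ube2cbp, Ube2l6 and Ube2z had covered length in PBS alone. No peak was found on 13 conjugating enzyme genes, among them Ube2o, Ube2r2, Ube2e1, Ube2e2, Ube2e3 and Ube2j1.

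Activating enzymes had short covered lengths, apart from Uba3 in lysine. Peaks lay on 6 of the 8 genes in PBS and on 3 in lysine, over 690 and 1392 bp. Over all protein-coding genes, 34.0% and 31.4% had a peak. As a share of gene length, 0.365% of the 8 genes was covered in PBS, beside 0.379% over all genes. In lysine these shares were 0.736% and 0.302%. Uba3, the catalytic subunit of the NEDD8 activating enzyme (chromosome 6, 97183632 to 97205647), had 145 bp in PBS and 926 bp in lysine, the largest gain of any of the 109 genes. Both peaks began at the same base before the start, and the lysine peak, 1158 bp wide against 377 bp, reached further into the gene. Its fold was 3.82 and its −log10 q 2.31. By narrow blocks the difference turned to -96 bp, and under the q filter of 5 neither library had a peak there. Uba2, a subunit of the SUMO activating enzyme, had 160 bp in PBS and 0 bp in lysine. Uba1, the main activating enzyme of ubiquitin, and its Y-linked copy Uba1y had no peak.

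Of the 109 genes, 3 of the ISG15 cycle, looked up whatever their values, had covered length in PBS alone. So did 18 of the 109 in all, and 1602 of all 21900 protein-coding genes. Uba7, the activating enzyme, had 37 bp in PBS and 0 bp in lysine, Ube2l6, the conjugating enzyme, 389 and 0 bp, and Usp18, the protease that removes ISG15, 306 and 0 bp. Under the q filter of 5 Ube2l6 alone of the 3 had its PBS peak. At Uba7 both libraries had a peak before the gene, since with 1 kb added at both ends it had 499 and 362 bp.

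Among the deubiquitinases, peaks lay on 31 of 64 genes in PBS (48.4%, 35.8 to 61.3) and on 26 in lysine (40.6%, 28.5 to 53.6), beside 34.0% and 31.4% of all genes. PBS marked 10 genes and lysine 7 (15.6% and 10.9%), 5 of them the same, and over all genes these shares were also lower in lysine, at 11.4% and 9.02%. Their covered length was 15935 and 12259 bp (ratio 0.769). In lysine 22 genes were shorter and 12 longer (34.4% and 18.8%, beside 22.5% and 16.1%). Within the group the 56 Usp genes had 14808 and 11018 bp (ratio 0.744) and the 8 Otud genes 1127 and 1241 bp (1.10).

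Usp32, a deubiquitinase of the Golgi and endosomes (chromosome 11, 84984437 to 85140281), had the most covered length, 1937 bp in PBS against 1469 bp in lysine. It carried 4 peaks in PBS and 3 in lysine. Of these, 1 lay at the start in each library, where Usp32 also overlaps 1700125H20Rik; the PBS peak ended 91 bp before the listed start and the lysine peak covered it. The others were far inside, about 136 and 152 kb from the start in both libraries and about 16 kb from it in PBS alone. Usp6nl had 1331 and 1587 bp, most of it under a wide peak (1303 and 1204 bp) with its midpoint 56827 bp into the gene in PBS and 56876 bp in lysine. Lysine had another peak of 383 bp, 44216 bp into the gene, without a PBS partner, and under the q filters of 2 and 5 the difference turned to -99 bp. Usp15, which acts on receptors of the TGF-beta pathway among others, had 1269 and 1103 bp under 1 peak over the start in each library. Its lysine peak was lost under the q filter of 2, where the difference was -1269 bp.

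Usp37, a cell cycle enzyme (chromosome 1, 74435510 to 74544286), showed the largest gain of the deubiquitinases, from 974 bp in PBS to 1529 bp in lysine. The PBS peak over its listed start was 658 bp wide with a fold of 8.21, and the lysine peak at the same place was 1529 bp wide with a fold of 6.08. Another PBS peak of 316 bp lay deep in the gene. The peaks at the start also reach into Cnot9, a subunit of the CCR4-NOT complex that overlaps Usp37. By narrow blocks the difference turned to -351 bp.

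Enzymes linked to innate immune signalling made up a list of 10. PBS had a peak on 9 of them and lysine on 7, beside 34.0% and 31.4% of all genes. Marked genes numbered 4 and 3, beside 11.4% and 9.02%, and covered lengths were 4775 and 3188 bp (ratio 0.668, and 0.796 over all genes). Usp4 (chromosome 9, 108346564 to 108392545), an enzyme of NF-kB and TGF-beta signalling, had 1161 bp in PBS and 331 bp in lysine, the largest shortfall among the deubiquitinases. A PBS peak of 1161 bp over its listed start stood opposite a lysine peak of 331 bp inside the same stretch. Under the q filter of 5 neither library had a peak on Usp4. Otud4 had 587 and 0 bp and overlaps Gm51579. It too had no peak in either library under that filter, nor by narrow blocks. Usp25, which acts on TRAF proteins, had 553 and 169 bp. Under the q filter of 2 the difference at Usp25 turned to 169 bp. Otud1 had 163 and 523 bp, and Otud5, which restrains type I interferon through TRAF3, 283 and 671 bp. These 2 were thus longer in lysine, by 360 and 388 bp, and neither had a peak under the q filter of 5. Usp2 and Usp38 had 171 and 91 bp and 282 and 300 bp, and Otud7b had none.

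Deubiquitinases of histones and of the DNA damage response had short stretches or none. Each library had a peak on 3 of 8 enzymes acting on histones (37.5%), near the 34.0% and 31.4% of all genes. Each marked 0 of the 8, beside 11.4% and 9.02% of all genes. Usp22, the enzyme of the SAGA complex, had 126 and 94 bp, Usp3 350 and 395 bp and Usp16 201 and 322 bp. The Usp22 peaks had a fold of 12.8 in PBS and 9.77 in lysine, the highest of any PBS peak on the 109 genes, and lay for the most part outside the gene. Of 6 enzymes linked to DNA damage and p53, Usp7 had 487 and 0 bp, Usp10 427 and 0 bp, Usp28 0 and 134 bp and Usp47 0 and 108 bp, and Usp1 and Usp11 had none. The Usp7 peak lay from -1049 to -563 bp of the listed start, within the longer span that RefSeq gives the gene. Usp8, which sorts endosomal receptors, had 482 and 343 bp, and Usp14, an enzyme of the proteasome, had none.

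Usp53, Usp54 and Usp48 completed the marked genes. Usp53, which has lost catalytic residues, had 617 and 513 bp and was longer in lysine by 513 bp under the q filter of 5. Usp54 had 944 and 429 bp, and a PBS peak of 496 bp without a lysine partner makes up nearly all of the gap, which was -19 bp under the q filter of 2. Usp48 had 551 and 447 bp. Just inside the limit of 500 bp lay Ube2f and Usp48 in PBS (542 and 551 bp) and Ube2f and Usp53 in lysine (502 and 513 bp). Just outside lay Usp7 and Usp8 in PBS (487 and 482 bp) and Usp48 and Usp54 in lysine (447 and 429 bp). A peak was absent from 30 deubiquitinase genes, among them Usp9x, Usp24, Usp12 and Usp30, the 5 genes of the Usp17l group, and Usp26, Usp29, Usp44 and Usp9y.

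Set side by side, the classes had similar ratios of lysine to PBS covered length, 0.776 for the conjugating enzymes and 0.769 for the deubiquitinases. Their order turned under the q filter of 5, with 0.496 and 1.14, and in no other alternative run. With equal numbers of peaks they were 1.03 and 0.870. The share of genes with a peak was 59.5% (42.1 to 75.2) for conjugating enzymes and 48.4% for deubiquitinases in PBS, and 45.9% (29.5 to 63.1) and 40.6% in lysine, and the intervals overlap widely. As a share of gene length, 0.626% of the conjugating enzyme genes was covered in PBS and 0.485% in lysine, compared with 0.426% and 0.327% for the deubiquitinases and 0.379% and 0.302% over all genes. Deubiquitinase genes were longer, with a median of 46.6 kb against 30.4 kb. Among genes of 20 to 50 kb a PBS peak was found on 8 of 13 conjugating enzyme genes and 14 of 21 deubiquitinase genes, and a lysine peak on 7 and 9. Over all genes of that length these shares were 42.1% and 39.1%. Under 20 kb the PBS counts were 8 of 14 and 4 of 15, beside 25.9% of all genes.

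**Figure D2:**
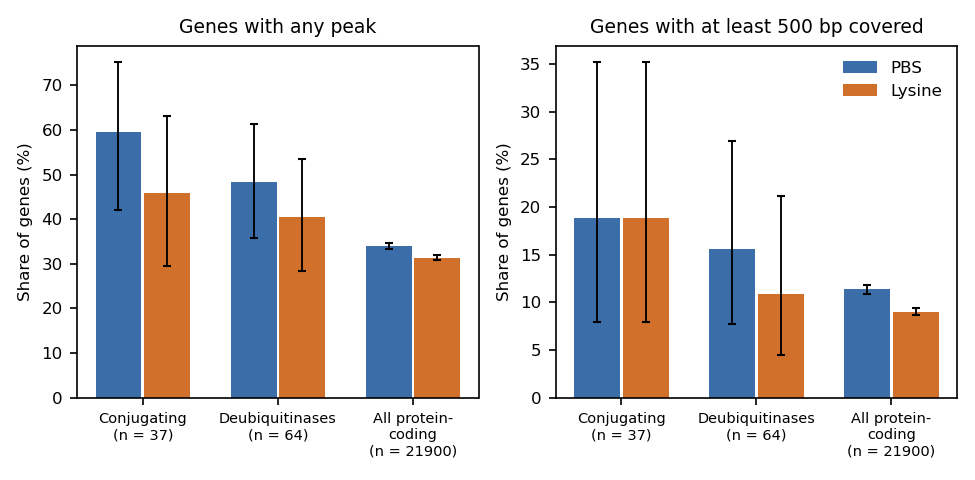
Share of genes in % (y axis) with any peak (left) and with at least 500 bp covered (right), for conjugating enzymes, deubiquitinases and all protein-coding genes in the PBS and lysine libraries, with 95% Clopper-Pearson intervals as bars. The intervals of the classes overlap one another in both panels, and 18.9% of conjugating enzyme genes were marked in each library.

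Peaks of conjugating enzymes lay more often over a start than those of deubiquitinases, with overlapping intervals. Peaks were placed by the distance to the nearest listed start, for the 84 genes with one. Of 21 PBS peaks on conjugating enzymes 15 covered a start (71.4%, 47.8 to 88.7) and 2 lay beyond 10 kb, both on Ube2l3. Of 32 PBS peaks on deubiquitinases 15 covered a start (46.9%, 29.1 to 65.3) and 10 lay beyond 10 kb. In lysine 13 of 15 and 15 of 25 covered a start, and 2 and 7 lay beyond 10 kb. The share of covered length within 1 kb of a start was 68.0% in PBS and 77.6% in lysine for conjugating enzymes and 59.6% and 69.0% for deubiquitinases, compared with 56.1% and 63.1% over all genes with a listed start. Beyond 10 kb it was 11.8% and 16.9% for conjugating enzymes, 37.5% and 30.3% for deubiquitinases, and 27.7% and 21.9% over all. Deubiquitinases had 0.923 of their PBS length within 1 kb of a start in lysine and 0.645 beyond 10 kb, and all genes 0.896 and 0.630. Conjugating enzymes had 0.778 and 0.980.

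**Figure D3:**
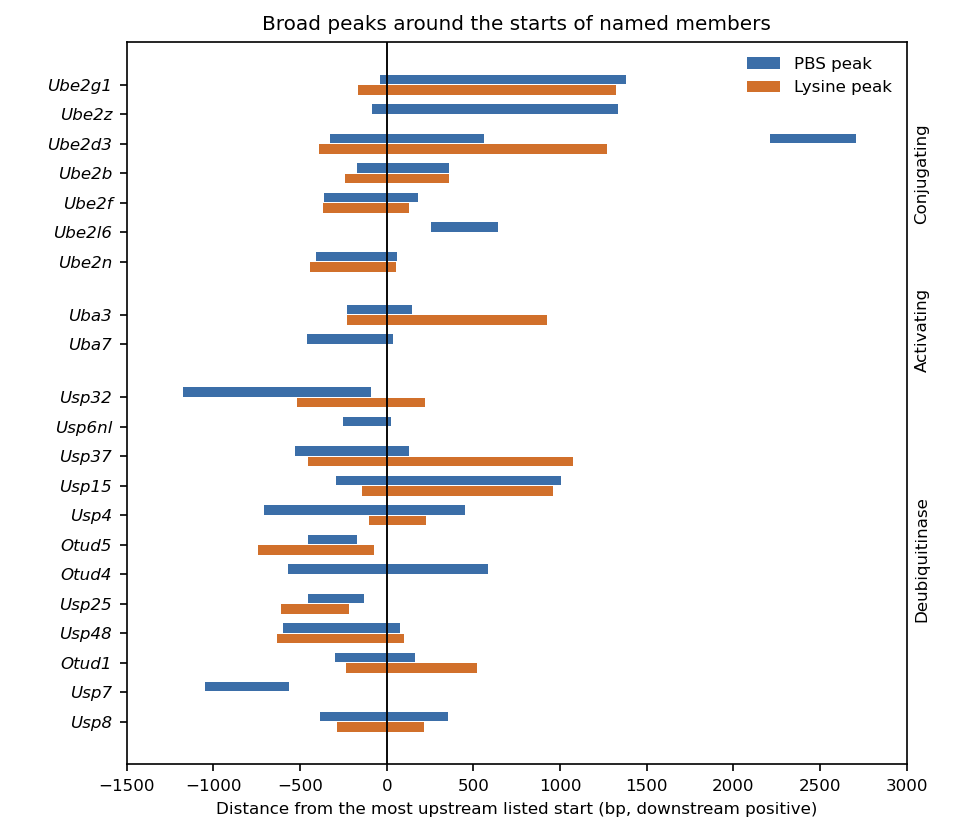
Broad peaks of the PBS library (upper bar of each pair) and the lysine library (lower bar) around the most upstream listed start of named genes, in bp with downstream positive; only peaks that touch the gene are drawn, within the range shown. Most of the peaks shown cross the start. At Uba3, Usp37 and Ube2d3 the peak over the start reaches further downstream in lysine, but Ube2d3 has another PBS peak beyond it. Ube2z, Otud4 and Ube2l6 are among the genes with a PBS bar alone.

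The strongest peaks on these genes gave little covered length, since part of each, apart from Ube2f, lay outside the gene. In all, 70 PBS peaks and 51 lysine peaks touched the 109 genes, with 66.4% and 65.9% of their summed width on the gene. The 5 PBS peaks with the highest −log10 q, on Usp22, Ube2c, Usp38, Ube2f and Usp36, had from 97 to 542 bp on the gene. The 5 highest in lysine, on Ube2c, Usp22, Otud6b, Usp36 and Usp20, had from 47 to 180 bp. With 1 kb added at both ends of each gene, 37 genes were marked in PBS and 32 in lysine. The share of all genes marked at that setting is not given here, so whether this rise is particular to the 109 genes is unknown.

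Lysine peaks on these genes were mostly found in PBS as well. A PBS peak overlapped 45 of the 51 lysine peaks by at least 1 bp (88.2%, 76.1 to 95.6), against 75.3% of all lysine peaks, and of the 70 PBS peaks 46 (65.7%, 53.4 to 76.7) overlapped a lysine peak, against 61.9% of all. For conjugating enzymes the numbers were 16 of 18 and 15 of 25, and for deubiquitinases 26 of 30 and 26 of 39. The 6 lysine peaks without a PBS partner lay on Ube2j2, Ube2q2, Usp28, Usp42, Usp47 and Usp6nl. Median widths were 499 and 559 bp, against 456 and 450 bp over the whole lists. Of the 70 PBS and 51 lysine peaks, 7 and 6 were 1 kb or wider. Over the whole lists 1180 of 11926 PBS peaks and 835 of 9805 lysine peaks were. Of these peaks 10 in PBS and 6 in lysine also touched another protein-coding gene.

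Among 94 other genes of the pathway, in 6 lists, PBS had a peak on 63 (67.0%) and lysine on 67 (71.3%). Over all genes these shares were 34.0% and 31.4%. Marked genes numbered 26 and 20 (27.7% and 21.3%, beside 11.4% and 9.02% of all genes). Covered length of the 94 was 34098 and 29925 bp (ratio 0.878, and 0.796 over all genes). It was shorter in lysine in 42 and longer in 32 (44.7% and 34.0%, beside 22.5% and 16.1%). Their median length was 45.2 kb, against 17.1 kb over all genes. Ubb, a gene of ubiquitin itself, had 487 and 937 bp. Peaks lay on 18 and 19 of 26 other deubiquitinases (69.2% and 73.1%), over 9036 and 7986 bp. Of these 26 genes, 6 and 5 were marked (23.1% and 19.2%). Mindy2 had 1910 and 1308 bp, and Tnfaip3, the NF-kB inhibitor A20, 1239 and 930 bp. The lowest ratio of the 6 lists, 0.439, was that of 9 activating and conjugating enzymes outside the symbol rule (6577 and 2890 bp). Of these 9 genes, 4 and 0 were marked (44.4% and 0.0%). Among the 9 were Atg7 (2314 and 421 bp) and Atg10 (1304 and 476 bp), enzymes of autophagy. Another was Cdc34 (1198 and 142 bp), the conjugating enzyme of cullin ligases. In lysine 6 of the 9 were shorter and 3 longer (66.7% and 33.3%).

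Ligases had ratios of 0.989 (HECT and U-box), 1.08 (RBR) and 1.03 (cullin core), beside 0.796 over all genes. The alternatives were run on the named genes of these lists, not on the list sums. Each library had a peak on 16 of 25 HECT and U-box ligases (64.0%, beside 34.0% and 31.4% of all genes). Their covered lengths were 7561 and 7481 bp. Wwp2 had 1008 and 886 bp, Nedd4l 563 and 1099 bp, Ube4b 470 and 1029 bp and Prpf19 689 and 0 bp. Of 13 RBR ligases 8 and 10 had a peak (61.5% and 76.9%), over 5555 and 6012 bp. Rnf217 had 1931 and 866 bp and Rnf19b 508 and 1535 bp. Of 18 core genes of cullin ligases 11 had a peak in each library (61.1%), over 4047 and 4156 bp. Eloc had 485 and 745 bp, Cul4a 50 and 1120 bp and Fbxw11 884 and 114 bp. The differences of Mindy2, Tnfaip3, Cdc34, Wwp2 and Nedd4l turned under an alternative. By narrow blocks those of Rnf217 (-102 bp), Rnf19b (46 bp), Cul4a (110 bp) and Ube4b (18 bp) nearly closed. Prpf19 had no peak in either library by narrow blocks, with equal numbers of peaks or under either q filter.

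**Figure D4:**
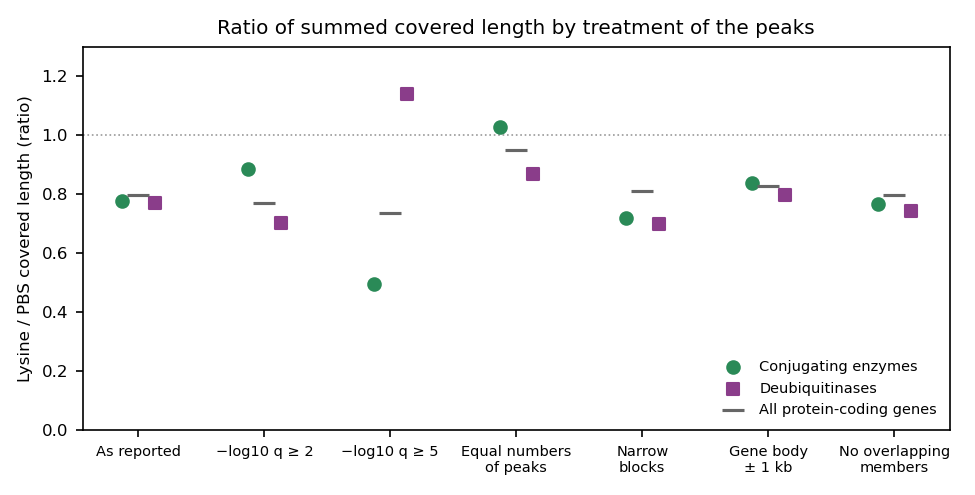
Ratio of summed covered length, lysine over PBS (y axis), for conjugating enzymes, deubiquitinases and all protein-coding genes under each treatment of the peaks (x axis), with a dotted line at 1. The classes lie close together as reported, at 0.776 and 0.769, and furthest apart under the q filter of 5, at 0.496 and 1.14.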

How the data were processed

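Per the labels' protocols, BMDCs given PBS or lysine were fixed with formaldehyde, and H3K79me2 ChIP and input libraries were sequenced. Per the submitters' processing notes, the tools include MACS2 2.1.2, a peak caller, Bowtie2 2.3.4.1, an aligner, Trimmomatic 0.38 and cutadapt 1.18, which trim reads, and Picard, FastQC and ChIPseeker. The notes give GRCm38 as the genome but state neither settings nor an order. The authors deposited 1 peak list of each kind per H3K79me2 library. The files have no header and were read by the MACS2 layout. The deposited fold enrichment is a linear ratio over local background, averaged over a peak. Significance was deposited by the authors as −log10 of p and of q. The score that the authors deposited equals 10 times −log10 q, decimals dropped, and was not used further. All of these belong to single peaks and were compared only within their own list.

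Covered length was counted from a gene's first to last base in the RefSeq table of GRCm38.p6, as the union of broad peaks. Starts and strand came from the RefSeq promoter table, which lists 84 of the 109 genes. The 25 others have no position from a start. A gene can have several starts, and its span can begin before all of them. Another protein-coding gene overlaps 17 of the 109, and covered length there can count for both. Narrow blocks are those of the gapped lists, without blocks of 1 bp. The members and gene lists were chosen with earlier results of these data known. Named are the genes with at least 500 bp in either library (at most 25 per class), Usp18, Ube2l6, Uba7 and Ube2n, the genes nearest to 500 bp, and, from each further pathway list, the 2 most covered genes and the 2 that differed most. Values of some genes under this rule were left out. Members named besides these were chosen after their values were seen. Python 3.11.15, numpy 2.4.6, pandas 2.3.3, scipy 1.17.1 and matplotlib 3.10.9 were used. The computation of covered length was tested on simulated data (2000 genes, 0 errors) and checked against bedtools 2.31.1, with 0 differences. Read depth and the settings of peak calling were not given in the sources used here, so no error from depth could be given.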

Additional observations from a re-analysis of the deposited data

How the results depend on the processing

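No paired analysis was possible because each condition has 1 library. The total of all 109 genes was -5244 bp, lysine minus PBS, and was below 0 in each alternative run. It was -4634 bp under the q filter of 2, -1877 bp under that of 5, -894 bp with equal numbers of peaks, -6535 bp by narrow blocks, -7447 bp with 1 kb at both ends, -4432 bp without genes that overlap another, and -5256 bp without the members that are not enzymes of their class, such as Usp6nl and Ube2cbp, an alternative added after seeing the data. In the same order the conjugating enzymes (-2270 bp) gave -929, -2885, 240, -2125, -2597, -2213 and -1958 bp, and the deubiquitinases (-3676 bp) -4407, 748, -1836, -4235, -4866, -2921 and -3932 bp. The ratio of conjugating enzymes minus that of deubiquitinases (0.0066) gave 0.183, -0.645, 0.162, 0.022, 0.0408, 0.0221 and 0.0698. The activating genes turned from 702 to -175 bp by narrow blocks. Marked genes numbered 17 in PBS and 15 in lysine, 14 and 15 with equal numbers of peaks, 9 and 7 under the q filter of 5, 37 and 32 with 1 kb at both ends, 8 and 7 with a minimum of 1000 bp, and 59 and 46 with a minimum of 1 bp. The share of conjugating enzymes with a peak under the q filter of 5 was 43.2% in PBS and 24.3% in lysine. For deubiquitinases it was 20.3% and 21.9%. Shares over all genes under that filter, or marked with 1 kb at both ends, are not given here. Counting peaks as shared from 50% of their width left 61.4% in PBS and 80.4% in lysine. Of 27 named genes 7 kept their direction in all 5 alternatives, 11 turned in at least 1, and the other 9 showed no difference in at least 1. Under the q filter of 2, Ube2b (69 bp), Usp25 (169 bp) and Usp6nl (-99 bp) turned. Under that of 5, Ube2b (69 bp), Ube2d3 (-563 bp), Ube2g2 (-206 bp), Usp53 (513 bp), Usp6nl (-99 bp) and Usp8 (343 bp) did, and with equal numbers of peaks Ube2b (69 bp) and Usp25 (169 bp). By narrow blocks Uba3 (-96 bp), Ube2d3 (-22 bp), Ube2g1 (144 bp), Ube2g2 (-206 bp) and Usp37 (-351 bp) turned, and with 1 kb at both ends Ube2g1 (74 bp) and Ube2n (24 bp). Of the other pathway genes, in alternatives added after seeing the data, Mindy2 (843 bp) and Wwp2 (388 bp) turned under the q filter of 2, Nedd4l (-563 bp) and Tnfaip3 (303 bp) under that of 5, Mindy2 (843 bp) and Wwp2 (886 bp) with equal numbers of peaks, and Cdc34 (65 bp), Mindy2 (90 bp), Tnfaip3 (132 bp) and Wwp2 (886 bp) by narrow blocks. The cause was not tested.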

Other observations

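Where a peak lies depends on which base is taken as the start. The RefSeq span of a gene can begin at a predicted transcript far before the listed starts, as at Usp37. Measured from the 5′ end of the span, an alternative added after seeing the data, 40.2% of the covered length of deubiquitinases in PBS lay within 1 kb, and 59.6% did so from the nearest listed start. In lysine these shares were 42.2% and 69.0%. For conjugating enzymes they were 63.3% and 68.0% in PBS and 62.9% and 77.6% in lysine, and over all protein-coding genes with a listed start 45.1% and 56.1%, and 50.9% and 63.1%. The lysine to PBS ratio of deubiquitinases beyond 10 kb was 0.845 from the span end and 0.645 from the listed starts.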
